A study of Mus musculus with 6 samples.

Results

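Respiratory complexes II to V are the complexes of the mitochondrial electron transport chain other than complex I, together with ATP synthase. Their nuclear-encoded genes were taken as the rows of the expression table whose symbol is Sdha, Sdhb, Sdhc, Sdhd, Cyc1 or Cycs or begins with Uqcr, Cox4 to Cox8 or Atp5. The rule uses names only and found 49 of the 24537 rows, each a single RefSeq transcript. They comprise 4 genes of complex II, 9 of complex III, the electron carrier Cycs, 18 of the Cox families of complex IV and 17 with an Atp5 name. Of the last, Atp5s and Atp5sl encode no subunit of ATP synthase, although they carry the name, and Cox7a2l of the Cox group encodes a factor that joins complexes III and IV into supercomplexes. Atp5s and Atp5sl are left out of the counts by complex, which leaves 47 rows, called subunit genes below.

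Bulk RNA was sequenced from regulatory T cells (Tregs), which restrain immune responses, taken from inflamed mouse colon. Colitis was induced with TNBS, a hapten that T cells react to. Skin was sensitised with 1% TNBS, and after 7 days 2.5% TNBS was instilled rectally, in both groups. The tested genotype is labelled REV-ERB KO (3 libraries) and is set against REV-ERB WT (3 libraries). Nr1d1 encodes REV-ERBα, a repressor of the circadian clock. The sources used here give no strain, age, deleted allele, cell type of deletion or sort. The comparison asks how Tregs of the inflamed colon differ when REV-ERB is lost. The table gives TPM, a level scaled for transcript length and library size, so levels can be compared between genes. The reads behind it came to 12641850, 13848375 and 15890630 in KO-labelled libraries 1, 2 and 3, and to 9794480, 12122575 and 11678688 in WT-labelled libraries 1, 2 and 3.

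As a check on the labels, Nr1d1 stood at 169, 154 and 141 TPM in KO-labelled libraries and at 66.3, 104 and 88.2 TPM in WT-labelled libraries, so its transcript was not lower where the label says KO. The row covers the whole transcript, and directions below follow the labels as given. Foxp3, the transcription factor that defines Tregs, was present in every library, at 201 ± 32.1 TPM (SD, n = 3) in KO-labelled libraries and 568 ± 108 TPM (SD, n = 3) in WT-labelled libraries. The keratin Krt8, an epithelial gene that Tregs should lack, stood at 718 ± 289 TPM and 345 ± 68.1 TPM in the same order of groups (SD, n = 3 each).

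Complex II oxidises succinate, and is both an enzyme of the citric acid cycle and an entry point for electrons. Complex III passes electrons from ubiquinol to cytochrome c, complex IV passes them on to oxygen, and both pump protons. Complex V, the ATP synthase, lets the protons flow back through a rotating ring and makes ATP. Tregs are known to depend on oxidative metabolism more than effector T cells do. The catalytic proteins of complex IV and parts of complexes III and V are encoded by mitochondrial DNA, and those transcripts were not analysed here.

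Promoters of respiratory genes are known for binding sites of NRF1, a transcription factor that couples nuclear and mitochondrial gene expression. An NRF1 consensus, GCGCA and GCGC with any 1 base between them, was searched on both strands in RefSeq windows (GRCm38.p6) from 250 bases before to 50 after each start. Windows were matched for 38 of the 49 genes. Of the 31 windows of Cycs and the subunit genes other than tissue isoforms and Cox7a2l, 9 held the word (29.0%), against 4.6% of all 32851 RefSeq windows. The 2 sets are not alike. Each of these genes has 1 window, the nearest to its listed start. The full set can hold several per gene and was not filtered for expression. The stretches below are shown as examples of these words before the start in complexes II, IV and V, with the words in capitals. Those of Sdha and Cox6a1 hold the most of their complex, and Atp5k is 1 of several genes of complex V with a single word. They run 5′ to 3′ on the gene's strand, at chr13:74350241-74350353 for Sdha, chr5:115349051-115349135 for Cox6a1 and chr5:108434425-108434464 for Atp5k, all on the minus strand.
Sdha: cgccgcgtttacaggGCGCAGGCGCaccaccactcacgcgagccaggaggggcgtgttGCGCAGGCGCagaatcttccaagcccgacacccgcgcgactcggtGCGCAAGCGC
Cox6a1: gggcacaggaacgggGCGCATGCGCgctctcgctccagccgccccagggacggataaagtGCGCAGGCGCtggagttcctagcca
Atp5k: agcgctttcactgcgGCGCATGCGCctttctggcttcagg

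The word CCGGAAGT, bound by ETS factors such as GABPA, was in 4 of the 31 windows (12.9%) and in 3.89% of all windows. The half-site TAGGTCA, read by REV-ERB and ROR receptors, was in 1 of the 31 windows (3.23%), that of Cox7b, and in 2.61% of all windows. The paired REV-ERB site, AGGTCA repeated with 2 bases between, was in 0 of the 31 windows and in 3 of all 32851. A match of letters is a description and not a bound site, and these windows are short. Among tested genes, the 8 with an NRF1 word had a median log2 difference in level of 0.33 between the groups and the 22 without one had 0.32. Genes with no matched window, among them Cyc1, Atp5a1, Cox4i1, Sdhc and Uqcrc2, are in neither set.

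Of the 47 subunit genes, 41 reached 1 TPM in at least 3 of the 6 libraries and were tested. The levels of nearly all of them were higher in KO-labelled libraries, by about the same small amount in each complex, and no single gene passed the test. Of the 41, 40 had a log2 difference above 0, against 49.5% of all 13211 genes tested. Among the 40 is Cycs, which passed the filter only through the libraries labelled KO, so its direction cannot count as support. The median difference of the 41 was 0.31 for log2(TPM + 1), taken as KO-labelled minus WT-labelled libraries. The median over all genes was -0.0028. By complex, the median was 0.34 for complex II (4 of 4 genes above 0), 0.33 for complex III (9 of 9), 0.27 for complex IV (12 of 13) and 0.32 for complex V (14 of 14). Over all 18 rows of complex IV, untested ones included, it was 0.18. In limma's moderated test with Benjamini-Hochberg adjustment, 0 of the 41 passed at 0.05, as did 0% of all genes. At an unadjusted p under 0.05, 23 of the 41 were higher and 0 were lower in KO-labelled libraries, against 7.8% and 7.86% of all genes. All 3 libraries labelled KO were above all 3 labelled WT for 22 of the 41, against 10.6% of all genes, and 0 lay wholly below, against 10.4%. The count of 23 depended on single libraries. It was 8 without the library labelled KO 2, 5 without WT 2 and 7 without WT 3, where the share of all genes that were higher was 4.15%, 3.97% and 5.88%. It was 20 without KO 1, 17 without KO 3 and 30 without WT 1, with 5.77%, 10.4% and 9.56% of all genes.

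The summed level of the subunit genes was 9807, 10894 and 10060.4 TPM in KO-labelled libraries 1, 2 and 3, and 9427, 7473 and 8075 TPM in WT-labelled libraries 1, 2 and 3. WT 1 lay close below the lowest library labelled KO, and the other 2 lay well below. These sums made up 1.59 ± 0.0888% of all TPM in KO-labelled libraries and 1.31 ± 0.147% in WT-labelled libraries (SD, n = 3 each). The makeup was nearly the same in both. Complex V held 40.9 ± 0.732% of the summed level of the subunit genes in KO-labelled libraries and 40.7 ± 0.704% in WT-labelled libraries. Complex IV held 36.3 ± 0.884% and 36.5 ± 0.575%, complex III 17.5 ± 0.12% and 17.5 ± 0.352%, and complex II 5.32 ± 0.195% and 5.32 ± 0.0825%, with the libraries labelled KO first. None of these shares differed between the groups by more than the SD within a group.

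**Figure D1:**
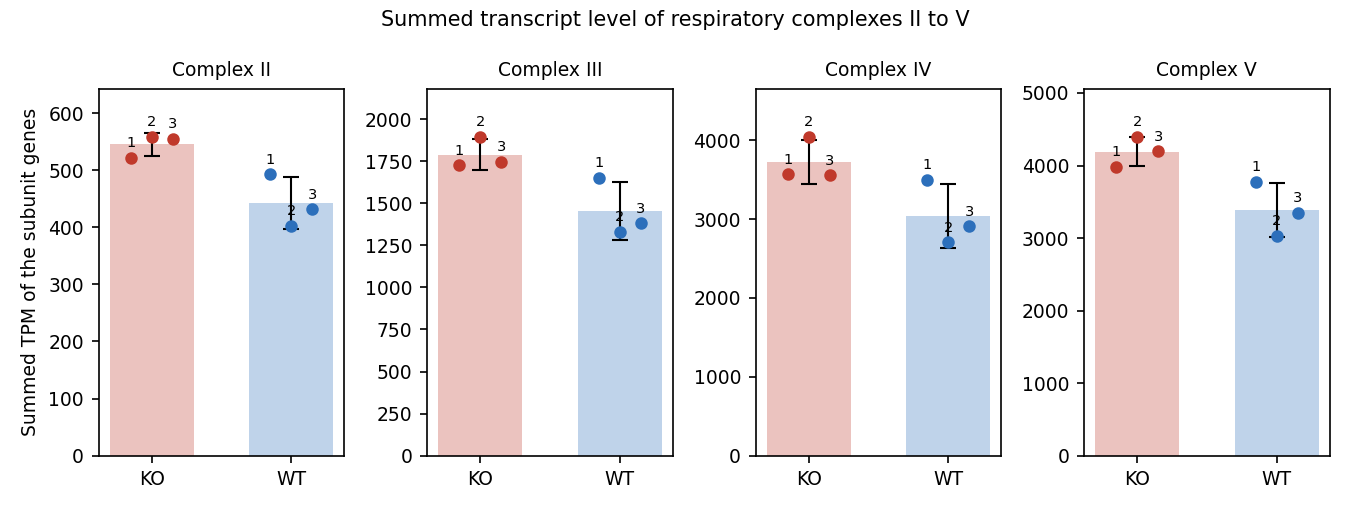
Summed TPM of the subunit genes of each complex, with bars for the group mean, error bars for the SD over 3 libraries and numbered points for the libraries. In every complex the libraries labelled KO lie above those labelled WT, and WT 1 is the highest of its group.

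All 4 genes of complex II were higher in each library labelled KO than in each labelled WT, though each missed the threshold. Sdha, the flavoprotein that oxidises succinate (NM_023281, mm10 chr13:74322255-74350240, minus strand), stood at 156, 167 and 163 TPM in KO-labelled libraries 1, 2 and 3 and at 139.6, 137 and 138 TPM in WT-labelled libraries 1, 2 and 3. The groups were tight and did not overlap. Its log2 difference of 0.23 (SE 0.0833) had a limma adjusted p of 0.267, and the exact two-sided permutation p was 0.1, the smallest that 3 against 3 libraries can give. Sdhb, the iron-sulphur subunit, stood at 154, 163 and 168 TPM in KO-labelled libraries and 144, 111 and 126 TPM in WT-labelled libraries. Its difference of 0.35 (SE 0.116, limma adjusted p = 0.232) was the largest of the complex.

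Sdhc and Sdhd, the anchors in the inner membrane that bind ubiquinone, had wider groups. Sdhc stood at 84.9, 99.2 and 87.5 TPM in KO-labelled libraries and at 82.7, 66.2 and 65.0 TPM in WT-labelled libraries. Sdhd stood at 127, 130.2 and 136 TPM in KO-labelled libraries and at 126, 88.0 and 102 TPM in WT-labelled libraries. For both genes WT 1 lay within a few TPM of KO 1. The log2 differences were 0.35 for Sdhc and 0.33 for Sdhd.

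In complex III, 6 of 9 genes had groups that did not overlap. Cyc1, the haem protein cytochrome c1 that hands electrons to cytochrome c (NM_025567, mm10 chr15:76343523-76345934, plus strand), stood at 151, 177 and 161 TPM in KO-labelled libraries and at 124, 87.5 and 107 TPM in WT-labelled libraries. It had the largest difference of all the subunit genes, 1.54-fold between group means and 0.63 on the log2 scale (SE 0.139, 95% interval 0.31 to 0.95, limma adjusted p = 0.145, exact permutation p = 0.1). Over the alternatives its difference ran from 0.31, with an epithelial covariate, to 0.74, without WT 1. Uqcrc1, a core protein of the matrix arm, stood at 155, 172 and 162 TPM in KO-labelled libraries and at 134, 111 and 118 TPM in WT-labelled libraries (log2 difference 0.43, SE 0.104, limma adjusted p = 0.162). The other core protein, Uqcrc2, stood at 151, 163 and 147 TPM in KO-labelled libraries and at 136, 122 and 120.2 TPM in WT-labelled libraries. Its row overlaps Pdzd9 on the opposite strand, and its log2 difference was 0.28.

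Uqcrfs1, the Rieske iron-sulphur protein, stood at 136, 141 and 137 TPM in KO-labelled libraries and at 127, 109 and 96.2 TPM in WT-labelled libraries, a log2 difference of 0.33 (SE 0.116, limma adjusted p = 0.255). Uqcrh, the acidic hinge protein beside cytochrome c1, was the most abundant gene of the complex and differed least. It stood at 527, 510.2 and 485 TPM in KO-labelled libraries and at 531, 420.4 and 423 TPM in WT-labelled libraries, so the groups overlapped, with WT 1 the highest of all 6. Its log2 difference was 0.16 (95% interval -0.12 to 0.43). The level of Cyc1 relative to Uqcrh, a ratio chosen after their values were seen, was 0.322 ± 0.0308 in KO-labelled libraries and 0.232 ± 0.0229 in WT-labelled libraries (SD, n = 3 each). The 4 small subunits Uqcr10, Uqcr11, Uqcrb and Uqcrq had log2 differences from 0.17 (Uqcrb) to 0.43 (Uqcr11).

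Cycs encodes cytochrome c, the mobile carrier between complexes III and IV, which also triggers apoptosis when it leaves the mitochondrion. It was listed at 2.52, 1.69 and 1.46 TPM in KO-labelled libraries and at 2.45, 0.974 and 0.699 TPM in WT-labelled libraries, far below the transcripts of the subunits on either side of it. These levels rest on 65, 48 and 47 reads in KO-labelled libraries and on 49, 23 and 16 reads in WT-labelled libraries. It entered the test through the 3 libraries labelled KO, since only 1 labelled WT reached 1 TPM, and its log2 difference of 0.34 had a 95% interval from -0.43 to 1.10.

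**Figure D2:**
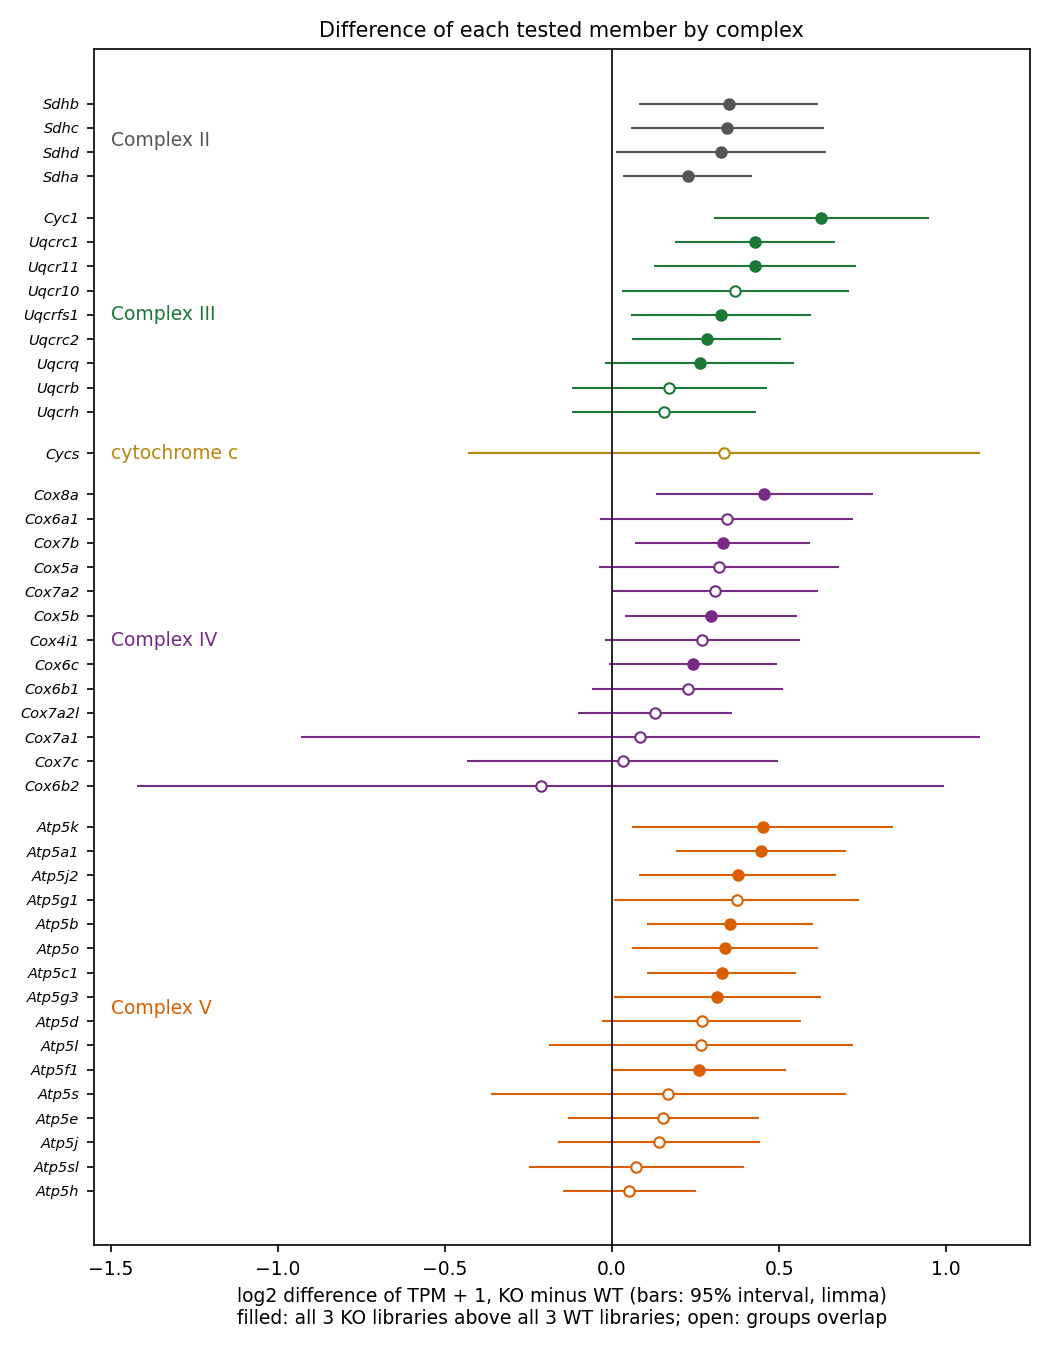
Log2 difference of each of the 43 tested rows, labelled KO minus labelled WT, with its 95% interval from limma, by complex; filled points mark genes whose groups do not overlap. Cyc1 lies farthest to the right at 0.63, and the points of complexes II, III and V lie to the right of 0.

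Complex IV had the most overlap between the groups, with 4 of 13 tested genes separated. Cox8a, a small subunit of the membrane part (NM_007750, mm10 chr19:7215158-7217616, minus strand), stood at 529.9, 592 and 526 TPM in KO-labelled libraries and at 489, 352 and 370.3 TPM in WT-labelled libraries. The groups did not overlap, and the log2 difference was 0.46 (SE 0.141, limma adjusted p = 0.216, exact permutation p = 0.1). Cox4i1, the regulatory subunit with the highest level of the complex, stood at 567, 624 and 570.5 TPM in KO-labelled libraries and at 574, 443 and 452 TPM in WT-labelled libraries. WT 1 lay inside the range of the libraries labelled KO, and the log2 difference was 0.27 (SE 0.126, limma adjusted p = 0.348).

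The same pattern held for several other subunits of complex IV. Cox5a, which sits on the matrix side, stood at 266, 335 and 318 TPM in KO-labelled libraries and at 290.4, 201 and 249.8 TPM in WT-labelled libraries (log2 difference 0.32). Cox6a1 stood at 504, 614 and 493 TPM in KO-labelled libraries and at 526, 357 and 398 TPM in WT-labelled libraries (0.34). Cox7a2 stood at 156, 193 and 171 TPM in KO-labelled libraries and at 161, 121 and 138 TPM in WT-labelled libraries (0.31). In all of these WT 1 stood above KO 1, and WT 2 was the lowest of the 6. Cox5b, Cox6b1, Cox6c and Cox7b had log2 differences from 0.23 to 0.33.

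Cox7a2l, the supercomplex factor, was nearly level. It stood at 249.98, 215 and 211 TPM in KO-labelled libraries and at 213, 199.8 and 205 TPM in WT-labelled libraries, a log2 difference of 0.13 (95% interval -0.10 to 0.36). Cox7c, another small subunit, stood at 35.9, 28.4 and 29.5 TPM in KO-labelled libraries and at 28.9, 40.8 and 23.7 TPM in WT-labelled libraries. Its difference of 0.03, which was -0.14 without WT 3, had an interval from -0.43 to 0.50, and WT 2, the lowest library for most subunits, was its highest.

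The isoforms of complex IV known from other tissues were low or absent. Cox7a1, the heart and skeletal muscle form, stood at 12.8, 28.7 and 6.58 TPM in KO-labelled libraries and at 15.3, 10.8 and 12.6 TPM in WT-labelled libraries. KO 2 held the highest value and KO 3 the lowest, so the log2 difference of 0.08 became -0.43 without KO 2. Its share of the summed level of Cox7a1, Cox7a2 and Cox7a2l was 3.77 ± 2.52% in KO-labelled libraries and 3.57 ± 0.341% in WT-labelled libraries (SD, n = 3 each). Cox6b2, the testis form, stood at 2.59, 4.33 and 0.347 TPM in KO-labelled libraries and at 2.24, 1.42 and 4.145 TPM in WT-labelled libraries. Its difference of -0.21 was the only one below 0 among the 41, with an interval from -1.42 to 0.99.

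Cox4i2, the lung form that responds to oxygen, had 2 reads over the 3 libraries labelled KO and 6 over those labelled WT. Cox6a2 and Cox8b, both muscle forms, and Cox7b2 and Cox8c had 0 reads in all 6 libraries. A count of 0 allows up to 3 independent counts over a group, by counting error only. Most low read counts were even, and if reads were counted in pairs the limit is 6 reads. These transcripts were not detectable at this depth. With Cox4i2 and Atp5g2, they are the 6 rows that were not tested.

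In complex V, the 5 subunits of the soluble F1 head were led by the catalytic pair. Atp5b, the β subunit that makes ATP (NM_016774, mm10 chr10:128083307-128090388, plus strand), was the most abundant of the 49 genes. It stood at 794, 879.8 and 873 TPM in KO-labelled libraries and at 720.1, 614 and 662 TPM in WT-labelled libraries, with no overlap (log2 difference 0.35, SE 0.108, limma adjusted p = 0.212). Atp5a1, the α subunit, stood at 503, 536 and 492 TPM in KO-labelled libraries and at 419, 337 and 370.45 TPM in WT-labelled libraries (log2 difference 0.45, SE 0.11, limma adjusted p = 0.165, exact permutation p = 0.1). Atp5c1, the γ subunit of the rotating shaft, stood at 267, 285 and 299 TPM in KO-labelled libraries and at 239, 211 and 228 TPM in WT-labelled libraries (0.33). Atp5d (0.27) and Atp5e (0.15), the other 2 subunits of the head, had overlapping groups.

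The membrane part and the stalk spread more widely. Atp5k, the small e subunit involved in pairing of ATP synthases, stood at 210.4, 299 and 224 TPM in KO-labelled libraries and at 208, 149.6 and 177 TPM in WT-labelled libraries. Its log2 difference of 0.45 (SE 0.169, limma adjusted p = 0.268) was the largest of the complex, and KO 1 exceeded WT 1 by little. Atp5o, which joins stalk and head, and Atp5j2, the f subunit, also had groups that did not overlap (0.34 and 0.38). At the other end, Atp5h, the d subunit of the stalk, stood at 160.4, 168 and 171 TPM in KO-labelled libraries and at 166, 161 and 154 TPM in WT-labelled libraries. Its difference of 0.05 had an interval from -0.15 to 0.25. Atp5j, another stalk subunit, differed by 0.14 with overlap, and Atp5f1, the b subunit of the stalk, by 0.26 without; the row of Atp5f1 overlaps Wdr77 on the opposite strand. Atp5l, the g subunit, differed by 0.27 with overlap. Of the rows that encode no subunit, Atp5s differed by 0.17 and Atp5sl by 0.07, both with overlap.

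The c subunits, which form the rotating ring, are made from 3 genes that yield the same mature protein. Atp5g3 supplied most of their summed transcript level, 89.9 ± 1.16% in KO-labelled libraries and 90.0 ± 1.19% in WT-labelled libraries (SD, n = 3 each). It stood at 359, 389 and 355 TPM in KO-labelled libraries and at 353, 252 and 290.1 TPM in WT-labelled libraries (log2 difference 0.31, limma adjusted p = 0.314). Atp5g1 stood at 43.3, 37.4 and 40.5 TPM in KO-labelled libraries and at 39.1, 27.9 and 27.1 TPM in WT-labelled libraries (0.37). Atp5g2 was listed at 1.11, 0 and 0.888 TPM in KO-labelled libraries and at 0.956, 3.43 and 0.625 TPM in WT-labelled libraries.

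**Figure D3:**
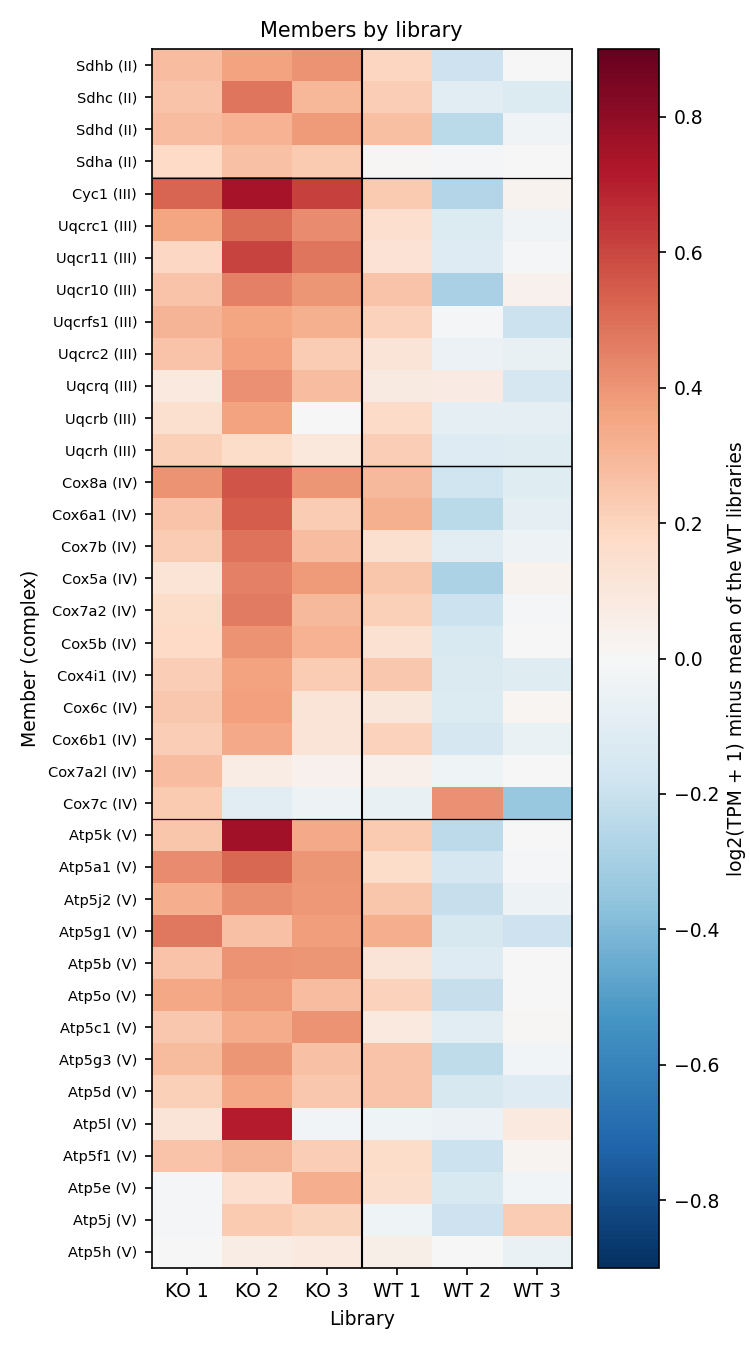
Level of each tested subunit gene other than Cycs and the tissue isoforms in each library, as log2(TPM + 1) minus the mean of the libraries labelled WT; rows are genes by complex and columns are libraries. WT 1 stands above WT 2 and WT 3 in most rows, and Cox7c departs from the rest of complex IV.

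Respiratory genes have many processed pseudogenes, and the low values of some members coincide with sequence that other genes also hold. For each member the share of its transcript's 50-base words that also occur in transcripts of other genes of GENCODE M21 was counted on both strands. It was 0 for 22 of the 49 genes. It reached 87.4% for Atp5g2, all of it shared with Gm10175, 84.8% for Atp5l, 66.0% for Atp5g1 and 53.0% for Cox7c. Leaving out tissue isoforms, the 5 tested subunit genes with at least 50% had a median level of 35.9 TPM over both groups, and the 20 with under 5% had 195 TPM. With the tissue isoforms Cox6b2 and Cox7a1, which were low and shared no words, the 22 with under 5% had 169.55 TPM. Atp5h and Atp5o, also at or above 50%, lay at the level of the other genes. Cycs shared 28.5% of its words, with 76 other genes, and its row counts a transcript of 3054 bases. The sources used here do not say how reads that fit several places were counted, so the levels of these genes, and the shares of the c subunit genes, are uncertain. The part of this sharing in the low values was not tested.

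**Figure D4:**
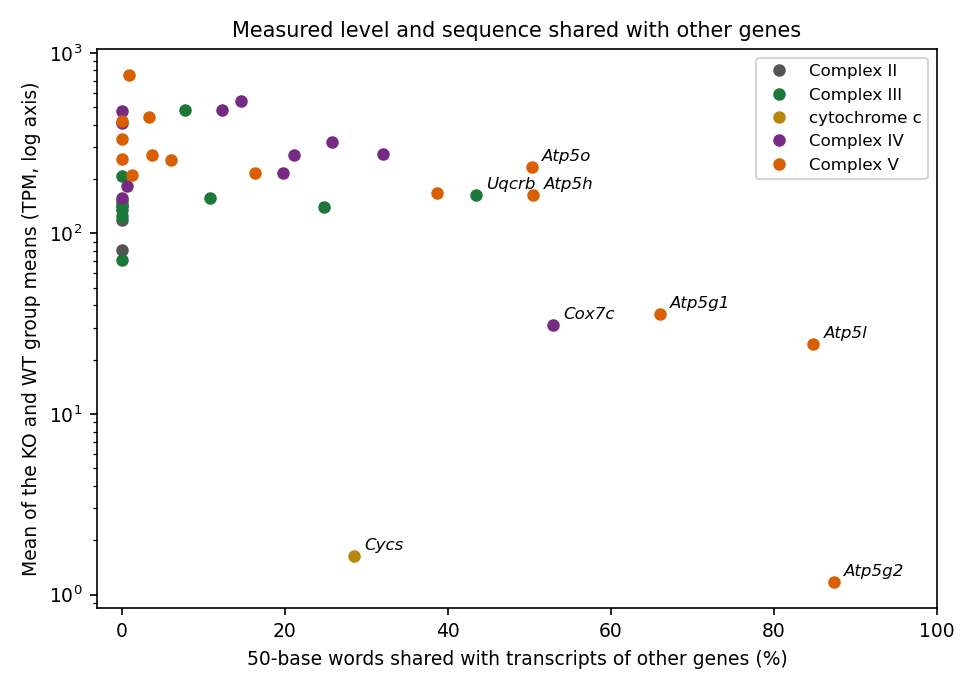
Mean of the 2 group means in TPM on a log axis against the share of a transcript's 50-base words found in other genes, for the members other than tissue isoforms, Atp5s and Atp5sl. Atp5g2, Atp5l, Atp5g1 and Cox7c lie low and to the right, and Cycs lies low at 28.5%.

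The level of the subunit genes moved with other lists across the libraries. The mean log2(TPM + 1) of the 41 tested genes was 7.29, 7.46 and 7.26 in KO-labelled libraries 1, 2 and 3, and 7.23, 6.91 and 7.02 in WT-labelled libraries 1, 2 and 3. The mean of the epithelial markers was 7.20, 7.74 and 6.80 in KO-labelled libraries and 6.66, 5.89 and 6.45 in WT-labelled libraries. From highest to lowest, both lists put the libraries in the order KO 2, KO 1, KO 3, WT 1, WT 3 and WT 2. For KO 1 and KO 3 this order did not hold throughout the subunit genes. KO 1 was the lowest library labelled KO for 23 of the 41, and KO 3 for 16. The mean was 7.00, 7.39 and 7.75 in KO 1 and 7.08, 7.44 and 7.80 in KO 3 for complexes II, III and V. For complex IV it was 7.25 in KO 1 and 7.06 in KO 3, and this mean includes the low isoforms Cox6b2 and Cox7a1. Cox6b2 had 12 reads in KO 1 and 2 in KO 3, and Cox7a1 had 39 and 25. The place of KO 1 above KO 3 in the mean of the 41 genes rests on these isoforms. The summed level of the subunit genes was higher in KO 3 (10060.4 TPM) than in KO 1 (9807 TPM). KO 2 was the highest of all 6 for 31 of the 41 subunit genes, and WT 2 the lowest for 30. Within the groups, WT 1 was the highest labelled WT for 37 of the 41. In 13 of the 19 genes with overlapping groups, WT 1 alone of the libraries labelled WT reached the range of those labelled KO.

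All 22 tested epithelial markers were above 0, with a median log2 difference of 0.96, and the groups did not overlap for 15 of them. Their summed level ran from 4322 to 8044 TPM in KO-labelled libraries and from 2633 to 4033 TPM in WT-labelled libraries, and none of the 23 markers was at 0 in every library. The 14 markers of Tregs and T cells had a median of -0.23, with 11 below 0, and summed to 6303 to 7252 TPM and 7871 to 8461 TPM in the same order of groups. In a bulk sample, fewer cells of a type and less RNA per cell cannot be told apart. The mean of the epithelial markers was itself higher in every library labelled KO (6.80 to 7.74) than in any labelled WT (5.89 to 6.66). A fit with it as a covariate therefore cannot separate genotype from epithelial content. In such a fit over all genes, the median difference of the subunit genes was 0.09, and 31 of the 41 were above 0. By complex it was 0.16 for complex II, 0.20 for complex III, 0.02 for complex IV and 0.07 for complex V. Of the 41, 0 were higher at an unadjusted p under 0.05 in that fit and 2 were lower, against 1.85% and 2.93% of all genes.

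Of 4 transcripts kept in the nucleus, 3 were tested, and all 3 had a log2 difference below 0, though none passed the test. The groups did not overlap for 2 of them, Malat1 and Neat1, and the third differed by -0.27. Malat1 stood at 288 ± 38.9 TPM in KO-labelled libraries and 546 ± 43.3 TPM in WT-labelled libraries, and Neat1 at 173 ± 23.0 and 344 ± 67.3 TPM (SD, n = 3 each, libraries labelled KO first). Here too WT 1 was nearest to the libraries labelled KO. Smooth muscle and fibroblast markers had a median of 0.36 (12 of 12 above 0), and their summed level ran from 288 to 539 TPM in KO-labelled libraries and from 219 to 498 TPM in WT-labelled libraries. Of the 8 skeletal muscle markers only 2 could be tested. Markers of myeloid, B, CD8 and NK cells had 10 of 13 above 0 and a median of 0.12. Among them S100a8, a neutrophil gene, was at 1.22, 5.57 and 8.57 TPM (4, 20 and 35 reads) in KO-labelled libraries. It was listed at 0 in all 3 WT-labelled libraries (limma adjusted p = 0.132). S100a8 entered the test only through the libraries labelled KO, so that p-value cannot count as support for a difference. The part of these cells and transcripts in the result was not tested.

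**Figure D5:**
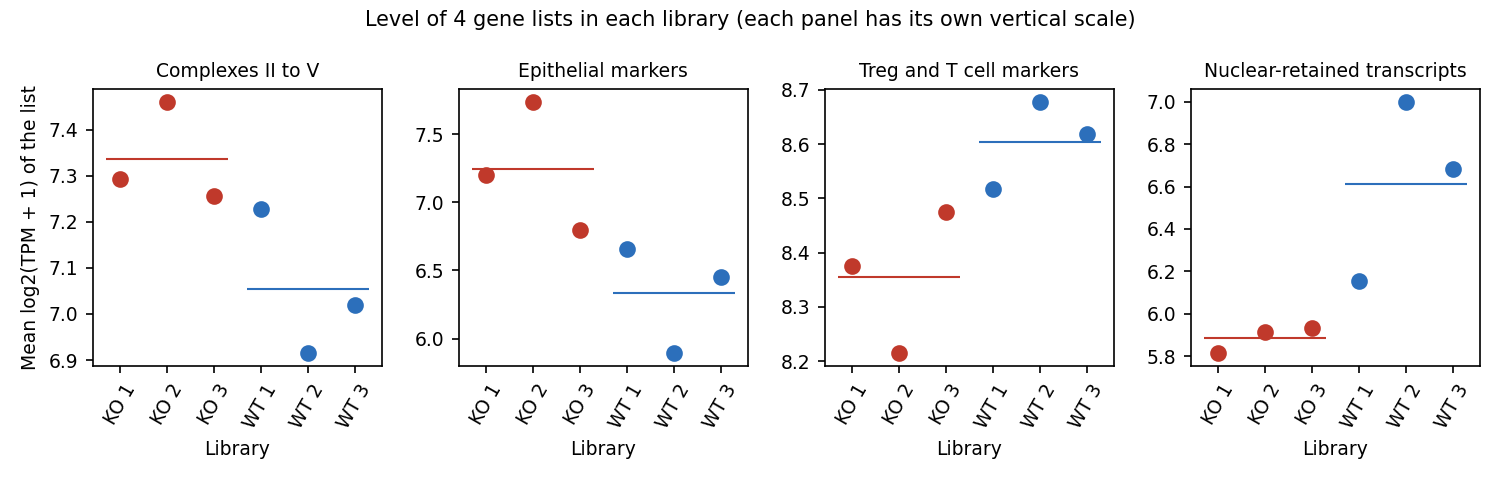
Mean log2(TPM + 1) of the tested subunit genes, of epithelial markers, of Treg and T cell markers and of nuclear-retained transcripts in each library, with lines for the group means; each panel has its own scale. The means of the subunit genes and of the epithelial markers share 1 order of libraries, from KO 2 down to WT 2. Taken alone (not drawn), complexes II, III and V put KO 1 below KO 3. The place of KO 1 above KO 3 in the subunit mean rests on the low isoforms Cox6b2 and Cox7a1.

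Genes that work beside the complexes differed in part. The citric acid cycle, which feeds complex II, had 14 of 14 genes above 0 and a median log2 difference of 0.28. Carriers and pores that bring ADP, phosphate, metabolites and proteins across the mitochondrial membranes had 10 of 10 above 0 and a median of 0.28. Their member of smallest p was Timm23, a channel for protein import, at 22.5 ± 3.41 and 15.7 ± 1.10 TPM with the libraries labelled KO first. Complex I subunits had 33 of 36 above 0 and a median of 0.25, with Ndufs5 of smallest p among those higher (0.68) and Ndufb4 among those lower (-0.22).

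Assembly factors varied by complex. Those of complex IV had 17 of 25 above 0 and a median of 0.07. Coa3, which stabilises a catalytic subunit as it is made, stood at 67.3 ± 3.37 TPM in KO-labelled libraries and 53.6 ± 4.07 TPM in WT-labelled libraries (0.32), and Cox20, a chaperone of another, at 75.7 ± 2.37 and 88.9 ± 6.82 TPM (-0.23). Those of complex III had 4 of 6 above 0 and a median of 0.14, with Uqcc2 (0.24) and Ttc19 (-0.17) as the members of smallest p. The 4 of complex II were all above 0 with a median of 0.27, and Sdhaf2, at 0.20, had the smallest p. The 5 of complex V, which include the inhibitor Atpif1 (0.41), had a median of 0.20.

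Regulators of respiratory genes showed no common direction. Of 15, 7 were above 0 and 8 below, with a median of -0.01. Esrra, a nuclear receptor that drives mitochondrial genes, stood at 30.3 ± 6.31 TPM in KO-labelled libraries and 20.7 ± 1.16 TPM in WT-labelled libraries (0.51, limma adjusted p = 0.226). Polg, the mitochondrial DNA polymerase, stood at 38.3 ± 7.50 and 49.9 ± 3.31 TPM (-0.39, limma adjusted p = 0.28) with the libraries labelled KO first. Mitochondrial ribosomal proteins had 53 of 78 above 0 and a median of 0.10, and cytosolic ribosomal proteins 61 of 81 and 0.14, both nearer to the median of all genes than the subunit genes. In limma's test 0 genes of any of these lists passed with adjustment over all genes, and the differences between lists were not tested.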

How the data were processed

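The authors deposited TPM values for 6 libraries, 1 row per RefSeq transcript with coordinates, length and copies, per the file headers. The submitters' processing notes list FastQC 0.11.8, Trim Galore 0.4.4, STAR 2.5.3a, HOMER 4.9.1 and mm10, without order or settings. Libraries were made from 1.3 µg of total RNA with a stranded poly(A) kit, per the labels' protocols. TPM times length came out in whole reads (99.99% of values up to 500 reads within 0.1), and 88.5% of values of 1 to 8 reads were even. Start coordinates equal those of the RefSeq table for 14482 genes and so count from 1.

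Genes at 1 TPM or more in at least 3 libraries (13211) were tested with limma 3.58.1 (R 4.3.3; moderated two-sided test, variance trend, genotype only) on log2(TPM + 1), which understates differences of low genes. The p-values were adjusted over all genes by the Benjamini-Hochberg method, and the pipeline was tested on simulated data. The simulated differences were larger than those of the subunit genes. They therefore do not show whether differences of the size seen here would be called. Single members also had an exact two-sided permutation test (scipy 1.17.1). Figures were drawn with matplotlib 3.10.9 (Python 3.11.15). Separate animals per library are not stated, so p-values cover only sample spread that may be technical. Replicate numbers are shared by both groups, and the labels do not say whether they pair the libraries. Libraries of the same number showed no clear shared deviation (correlations of deviations 0.0037, -0.219 and -0.0408 for numbers 1 to 3), which does not settle it.

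Members, lists and the rule for named genes were chosen with earlier results of these data known. Values in every library are given for a set list of subunits and isoforms and, in complexes III to V, for the subunit of smallest p, largest and lowest difference and highest level; in other lists the member of smallest p in each direction is named, except 1 that is not reported here. The alternatives tried were other pseudocounts, filters, scalings, models, an epithelial covariate and leaving out each library. Promoter windows are those of RefSeq and transcripts those of GENCODE M21.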

Additional observations from a re-analysis of the deposited data

How the results depend on the processing

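Of the tested subunit genes, 39 to 41 were above 0 in every refit except that with the epithelial covariate, where 31 of 41 were. That covariate itself separates the groups, so its fit cannot tell genotype from epithelial content. With that covariate the median log2 difference was 0.163 for complex II, 0.016 for complex IV, 0.070 for complex V and 0.086 for all, and among genes given in every library Atp5k (-0.0163), Cox6a1 (-0.0816), Cox7a1 (-1.24) and Uqcrh (-0.0126) turned negative. Array weights, which weighted the libraries from 0.427 (KO 3) to 2.10 (WT 3), called 582 of the 13211 genes tested. Of the 41 subunit genes, 4 were called (Cyc1, Uqcrc1, Atp5a1 and Cox8a). Leaving out each library gave 0 to 14 genes past the threshold, the 14 without WT 1 and none of them a subunit gene. The count of subunit genes higher at an unadjusted p under 0.05, 23 of 41, was 5 to 30 with a library left out. The share of all genes was 3.97% to 10.4% in those fits. It was 10 without the variance trend, 0 with the epithelial covariate and 15 with the replicate number as a block. In these refits 7.3%, 1.85% and 6.5% of all genes were higher at that p. Whether the replicate numbers pair the libraries is not known. Cox7a1 ran from -0.428 to 0.558 and Cox6b2 from -0.639 to 0.353 with a library left out. The causes were not tested. The 4 scalings moved the median of all genes by less than 0.1.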
